A study of Mus musculus with 54 samples.

Results

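The comparison described here is the first day of differentiation in mouse embryonic stem cells without their own Ezh1 and Ezh2, given Ezh2 back on a PiggyBac transposon (Ezh1-/-:Ezh2-/-;PiggyBac-Ezh2, called Ezh2 WT below). The 3 libraries labelled day 1 were set against the 3 labelled day 0, 6 of the 54 libraries of the study, and the members were chosen by those labels alone. By their labels, day 1 cells had spent 1 day in medium with 0.1 µM retinoic acid and without LIF, CHIR99021 and PD0325901. Day 0 cells were kept in serum medium with 1000 U/mL LIF, 3 µM of the GSK3 inhibitor CHIR99021 and 1 µM of the MEK inhibitor PD0325901, on gelatine and without retinoic acid. Adding retinoic acid and taking away the 3 other agents are labelled as 1 step, so their shares in a change cannot be told apart. Direct retinoic acid targets were mixed. Stra8 was lower in the libraries labelled day 1 than on day 0, and Cyp26a1 rose, at a low level. Rarb and Hoxb1 had too few counts on both days to show a change. Among 23 other targets tested, 7 rose and 10 fell. Whether the label and medium given for these 3 libraries hold was not tested by any other reading, so day 1 below stands for the labelled day. Libraries of the same line on day 4 are used as a further reading. For a test of what differs in Ezh2 WT, the same day 1 and day 0 libraries were taken from the line labelled EV (Ezh1-/-:Ezh2-/-;PiggyBac-empty), from amKR (the same background with Ezh2 carrying K510R, K514R and K515R) and from Suz12 WT (SUZ12-/-;PiggyBac-SUZ12), each with 3 libraries a day. The transposon insertions are not described in the labels, the promoter that drives the restored gene is not given in the sources used here, and the labels do not say whether the 3 libraries of a group came from separate cultures, so p-values speak of the spread among these libraries and of nothing wider.

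Polycomb repressive complex 2 (PRC2) methylates histone H3 on lysine 27, and Ezh2 is its catalytic subunit. Retinoic acid enters the nucleus and binds receptors of the Rar and Rxr families, which sit on response elements near genes such as Cyp26a1 and Rarb. The enzymes of the Cyp26 family break retinoic acid down again. In the stem cell medium LIF keeps Stat3 active, CHIR99021 stabilises beta-catenin and PD0325901 blocks the ERK kinases, and together they hold cells in the naive state of pluripotency. When they are withdrawn, cells pass through a formative state that resembles the early epiblast before they take up a lineage.

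RNA was read by 3′ end sequencing (QuantSeq), in which reads fall near the polyadenylated end of a transcript. Reads on genes numbered 4611400 to 4697290 per library on day 1 and 4355419 to 4533742 on day 0. Levels are given as CPM, counts on a gene after the libraries were scaled to one another, and a group of 3 libraries without a count allows up to 0.221 CPM on day 1 and 0.225 CPM on day 0 (3 counts over the group, counting error only). On day 0 replicate 2 stood apart from the other libraries of its group, with a chi-square per degree of freedom of 6.75 and 7.43 to replicates 1 and 3, which differed from each other by 2.42. Ezh2 had 234, 233 and 227 CPM on day 1, against 89, 88.3 and 87.7 CPM on day 0, and all 3 day 1 libraries were higher (log2 change of 1.39 ± 0.11, adjusted p 2.56e-11). The counts do not tell the restored gene from remnants of the deleted locus. Ezh1 had no count on day 1 and 2 counts over the day 0 group, both under the floor. In the line labelled EV, Ezh2 stood at 192 ± 7.84 CPM on day 1 and 183 ± 16.9 CPM on day 0 and Ezh1 at 6.37 ± 1.15 CPM and 9.29 ± 1.58 CPM, which goes against its label. The day 1 libraries are labelled as differentiated cells, and the 8 stem cell markers Pou5f1, Sox2, Nanog, Zfp42, Esrrb, Dppa5a, Sall4 and Utf1 summed to 2574 to 2809 CPM on day 1, against 2868 to 3282 CPM on day 0, and to 267 to 294 CPM on day 4. 3 of the 8 rose on day 1 and 3 fell. Of the rises, Utf1 held without each library in turn, Dppa5a (log2 change 1.79 ± 0.57) had an adjusted p of 0.0908 without day 1 replicate 2 and 0.0618 without day 0 replicate 2, and Pou5f1 is given below.

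The promoters below belong to genes that stand for the signals changed by the medium and that hold a motif for its nuclear factor. Sequences are from RefSeq on GRCm38.p6, 250 bases before to 50 bases after the start, 5′ to 3′ on the strand of the gene, and capitals mark the motif. For Cyp26a1 (chr19:37697558-37697857, plus strand) and Rarb (chr14:16575427-16575726, minus strand) the capitals mark a direct repeat with 5 bases between its units (AGGTCA or one of its variants AGTTCA and GGGTCA and the variant GGTTCA) on either strand, the form that retinoid receptors bind. Rarb was added after its values were seen.
Cyp26a1: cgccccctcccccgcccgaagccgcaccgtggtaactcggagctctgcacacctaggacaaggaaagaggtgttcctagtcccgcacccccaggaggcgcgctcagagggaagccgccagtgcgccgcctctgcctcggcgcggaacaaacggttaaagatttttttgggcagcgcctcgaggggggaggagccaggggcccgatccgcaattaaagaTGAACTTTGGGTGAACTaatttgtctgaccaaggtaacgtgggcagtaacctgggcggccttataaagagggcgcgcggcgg
Rarb: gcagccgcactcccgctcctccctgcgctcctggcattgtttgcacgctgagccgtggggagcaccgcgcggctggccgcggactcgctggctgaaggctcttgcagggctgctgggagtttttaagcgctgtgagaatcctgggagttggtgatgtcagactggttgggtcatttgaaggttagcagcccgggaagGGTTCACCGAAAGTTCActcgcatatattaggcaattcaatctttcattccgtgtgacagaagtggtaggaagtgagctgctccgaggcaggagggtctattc
For Sp5 (chr2:70474673-70474972, plus strand) and Lef1 (chr3:131156044-131156343, plus strand) they mark CTTTGAA, its variant CTTTGAT, the variant CTTTGTA or the variant CTTTGTT on either strand, letters that the TCF/LEF partners of beta-catenin bind.
Sp5: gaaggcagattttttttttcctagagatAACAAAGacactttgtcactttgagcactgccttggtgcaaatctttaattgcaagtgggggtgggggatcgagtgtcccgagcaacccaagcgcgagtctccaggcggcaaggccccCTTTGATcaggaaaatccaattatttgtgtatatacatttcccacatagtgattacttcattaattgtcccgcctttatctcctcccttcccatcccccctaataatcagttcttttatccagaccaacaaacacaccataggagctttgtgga
Lef1: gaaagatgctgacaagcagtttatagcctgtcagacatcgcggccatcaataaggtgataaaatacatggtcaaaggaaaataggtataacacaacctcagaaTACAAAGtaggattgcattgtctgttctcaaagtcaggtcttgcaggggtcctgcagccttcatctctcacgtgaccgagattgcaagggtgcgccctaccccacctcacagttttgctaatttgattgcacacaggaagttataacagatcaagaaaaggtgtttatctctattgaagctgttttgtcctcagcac
The repeat was found in 1 of 3051 promoters of genes that rose on day 1 and 0 of 3326 of genes that fell, beside 6 of 13120 of all tested genes (0.0457%), too few to compare, and 0.0974% of all promoters in the table. The same units with 2 bases between them were in 0.0983% of the promoters of genes that rose, 0.0601% of those of genes that fell, 0.0915% of those of tested genes and 0.268% of all promoters, and in no promoter of a listed retinoid gene. The table held promoters for 12 of 17 retinoid enzymes, 13 of 16 receptors and cofactors, 8 of 25 other targets, 19 of 30 beta-catenin targets and 23 of 25 LIF-STAT3 genes. The TCF/LEF letters were in 11% of the promoters of genes that rose, 11.4% of those of genes that fell, 11.6% of those of tested genes and 16.9% of all promoters. The STAT letters TTCCNGGAA were in 1.15% of the promoters of genes that rose, 1.14% of those of genes that fell, 1.18% of those of tested genes and 1.15% of all promoters, and in no promoter of a LIF-STAT3 gene that passed the test. Of the genes with a printed promoter, Cyp26a1 and Lef1 rose, Sp5 fell, and Rarb was near 0 on both days, with the values given below.

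Within 1 day much of the transcriptome moved. Of 14086 genes tested, 6582 passed at an adjusted p under 0.05 (46.7%), 3173 higher (22.5%) and 3409 lower (24.2%) on day 1. A change of 2-fold or more was reached by 1400 of the higher genes (9.94% of those tested) and 1723 of the lower (12.2%). All 3 day 1 libraries lay above day 0 for 27.2% of the genes tested and below for 29%. The median log2 change over all genes tested was -0.0241. These shares are the background against which the gene lists below are read. The lists were drawn up with earlier results of these data known and are described by counts and medians, without a test of their own.

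**Figure D1:**
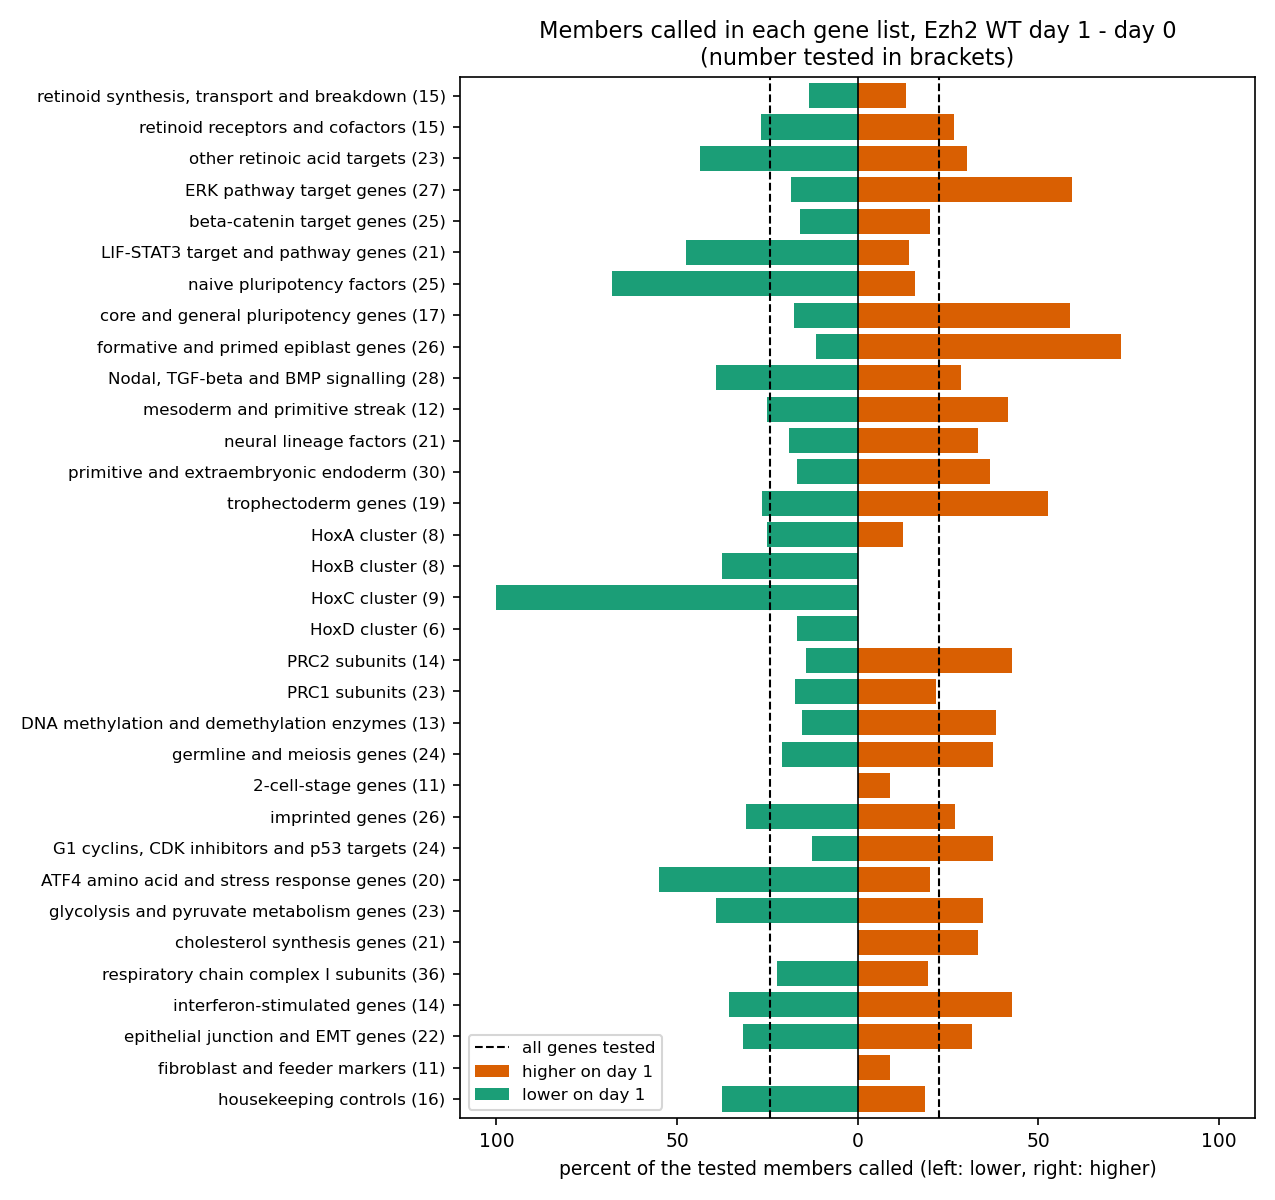
Percent of the tested members of each gene list that were lower (left, green) or higher (right, orange) on day 1 in Ezh2 WT, with the number tested in brackets. Dashed lines give the percent of all genes tested, 24.2% lower and 22.5% higher. The bar for HoxC reaches 100% on the lower side, and formative, ERK and core pluripotency lists reach farthest on the higher side.

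Among the largest rises were genes with hardly any count on day 0. Slc35d3, which encodes a nucleotide sugar transporter relative, had 11.5, 12.1 and 13.5 CPM on day 1, against 0, 0 and 0 CPM on day 0, at least 54.7-fold higher. Soga3 had 107, 98 and 132 CPM on day 1, against 0.668, 0 and 0.678 CPM on day 0 (log2 change of 7.88 ± 0.30, adjusted p 7.9e-18). That all day 1 libraries of both genes lay above day 0 was required by the rule that named the largest rises. The transcription factor gene Grhl2, which directs epithelial programmes, had 38.7, 37.9 and 43.3 CPM on day 1, against 0.445, 0.682 and 0.452 CPM on day 0 (log2 change of 6.18 ± 0.31, adjusted p 3.5e-15). The cyclin gene Ccnd2 had 350.5, 312 and 319 CPM on day 1, against 4.67, 2.27 and 4.07 CPM on day 0 (log2 change of 6.46 ± 0.20, adjusted p 5.25e-20). Arhgdib, an inhibitor of small GTPase cycling, averaged 34.9 ± 4.61 CPM on day 1 and 0.527 ± 0.349 CPM on day 0, and the guidance receptor gene Robo4 38.2 ± 1.65 CPM on day 1 and 0.596 ± 0.64 CPM on day 0. The sperm-type sodium pump gene Atp1a4 and the ciliary gene Catip, both with 2 counts over the day 0 group, gave a count ratio of 80.6, with a 95% exact interval of 21.9 to 671, and a count ratio of 74.2, with a 95% exact interval of 20.2 to 618. Pou3f1 and Myc complete the 10 largest rises and are given with their lists. Day 4 levels differed: Ccnd2 stood at 1353 ± 138 CPM on day 4, while Soga3, Grhl2 and Robo4 were at 3.04, 1.91 and 0.335 CPM.

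The largest fall was that of Fos, the immediate-early partner of Jun in AP-1. Fos had 2.7, 3.02 and 1.12 CPM on day 1, against 377, 369 and 432 CPM on day 0 (log2 change of -7.41 ± 0.23, adjusted p 5.25e-20), and its relative Fosb had 0.899, 1.72 and 1.57 CPM on day 1, against 85, 65.5 and 116 CPM on day 0 (log2 change of -5.96 ± 0.29, adjusted p 1.79e-15). The rule for the largest falls took only genes with all day 1 libraries below every day 0 library. Lrrc15, a membrane protein with leucine-rich repeats, averaged 0.879 ± 0.762 CPM on day 1 and 53.7 ± 2.27 CPM on day 0, and Rasgef1a, an exchange factor for Ras-like GTPases, 0.667 ± 0.233 CPM on day 1 and 29.3 ± 2.81 CPM on day 0. Ap3b2, a neuronal subunit of the AP-3 adaptor, averaged 0.368 ± 0.124 CPM on day 1 and 18.2 ± 2.44 CPM on day 0 and 34.4 ± 5.7 CPM on day 4. The myelin gene Mobp and the guidance gene Slit2 were left with 3 and 2 counts over the day 1 group, against 276 and 173 on day 0. For Mobp this is a count ratio of 0.0107, with a 95% exact interval of 0.00219 to 0.0315, and for Slit2 a count ratio of 0.0114, with a 95% exact interval of 0.00136 to 0.0416. Pgc, which encodes a pepsinogen, and Serpinb1a, a protease inhibitor, fell with log2 changes of -5.33 ± 0.53 and -5.03 ± 0.52. Spic is given with the naive factors.

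The retinoid lists moved in both directions on day 1, where 22.5% of all genes tested rose and 24.2% fell. Of 15 tested genes of retinoid synthesis, transport and breakdown (of 17 listed), 2 rose, 2 fell and 11 did not pass the test. Cyp26a1, the main enzyme of retinoic acid breakdown in the early embryo, had 1.8, 2.37 and 2.02 CPM on day 1, against 0, 0.455 and 0.678 CPM on day 0 (log2 change of 2.38 ± 0.79, adjusted p 0.0142), and the adjusted p was 0.0614 without day 0 replicate 1. All 3 day 1 libraries were above day 0, at a low level: on day 4 it stood at 183 ± 42.8 CPM. Cyp26b1, its relative, had 0.674, 0.215 and 0.449 CPM on day 1, against 0.89, 0.682 and 0.452 CPM on day 0, with overlapping libraries (log2 change of -0.58 ± 0.84, adjusted p 0.598), and 360.0 ± 56.7 CPM on day 4. Dhrs3, a retinaldehyde reductase that limits retinoic acid, had 4.72, 6.46 and 5.38 CPM on day 1, against 2, 5 and 6.56 CPM on day 0 (log2 change of 0.29 ± 0.33, adjusted p 0.485). The day 1 libraries of Dhrs3 overlapped those of day 0. Aldh1a3, an enzyme of retinoic acid synthesis, fell with a log2 change of -2.26 ± 0.55 and Fabp5, a carrier that can bind retinoic acid, with -0.99 ± 0.19.

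The receptor list held 15 tested genes of 16, of which 4 rose, 4 fell and 7 did not pass the test (22.5% and 24.2% of all genes rose and fell). Rarg, the receptor found in stem cells, had 423, 369.9 and 472 CPM on day 1, against 70.3, 71.4 and 63.3 CPM on day 0, clearly apart (log2 change of 2.62 ± 0.15, adjusted p 5.25e-14), and 35.5 ± 4.41 CPM on day 4. Rarb, a direct target as well as a receptor, had 0.225, 0 and 0 CPM on day 1, against 0, 0.455 and 0 CPM on day 0 which is 1 count and 2 counts, both under the floor, whereas it stood at 15.7 ± 3.14 CPM on day 4. Rara did not pass the test either, with 26.6 ± 1.01 CPM on day 1 and 26.1 ± 1.45 CPM on day 0 (log2 change of 0.02 ± 0.17, adjusted p 0.93). Rxrg, a partner receptor, had no count on day 0 and 18 counts over the day 1 group, at least 5.89-fold higher. The coactivator genes moved apart: Ncoa3 rose with a log2 change of 1.12 ± 0.13, while Ncoa1 and Ncoa2 fell with -0.67 ± 0.17 and -0.94 ± 0.15. The orphan receptor gene Nr2f1, which retinoic acid induces during neural differentiation, fell to 3 counts over the day 1 group, against 22 on day 0 (a count ratio of 0.134, with a 95% exact interval of 0.0257 to 0.446).

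Among 23 tested other targets of 25 listed, 7 rose, 10 fell and 6 did not pass the test (22.5% and 24.2% of all genes rose and fell). Stra8, named for its stimulation by retinoic acid, had 19.8, 19.8 and 17.7 CPM on day 1, against 35, 29.8 and 38 CPM on day 0, so all day 1 libraries were lower (log2 change of -0.84 ± 0.18, adjusted p 0.000273), and it reached 109 ± 16.6 CPM on day 4. Hoxb1 had 0.225, 0 and 0 CPM on day 1, against 0.223, 0 and 0 CPM on day 0, single counts on both days, and 78.7 ± 6.41 CPM on day 4. Tgm2, a transglutaminase, averaged 2.14 ± 0.288 CPM on day 1 and 41.4 ± 17.7 CPM on day 0 and 21.5 ± 0.806 CPM on day 4. The caudal gene Cdx1 fell with -2.08 ± 0.30, the homeobox gene Tlx2 with -1.91 ± 0.36 and Skida1 with -1.51 ± 0.23. The members that rose were led by Gbx2, which also belongs to the LIF and naive lists, with 51.7, 57.1 and 45.7 CPM on day 1, against 4.01, 0.682 and 2.04 CPM on day 0 (log2 change of 4.50 ± 0.32, adjusted p 4.14e-12). Cdkn1c, a CDK inhibitor, had 12.6, 12.5 and 11.4 CPM on day 1, against 0.668, 0.227 and 0.904 CPM on day 0 (log2 change of 4.28 ± 0.26, adjusted p 1.21e-13), and Meis1, a partner of Hox proteins, rose with 2.05 ± 0.33. The sister lines also moved both ways: of the 23 other targets 6 rose and 9 fell in the line labelled EV, and 6 and 9 in amKR. Of 15 genes of retinoid synthesis, transport and breakdown, 3 rose and 2 fell in the line labelled EV, and 5 and 3 in amKR. Of 15 receptors and cofactors the counts were 4 and 4, and 6 and 5. Of all genes, 23.9% rose and 23.2% fell in the line labelled EV, and 24.7% and 23.7% in amKR. Whether the retinoic acid signal was active in the day 1 cells of Ezh2 WT was not tested by any reading other than the levels above.

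**Figure D2:**
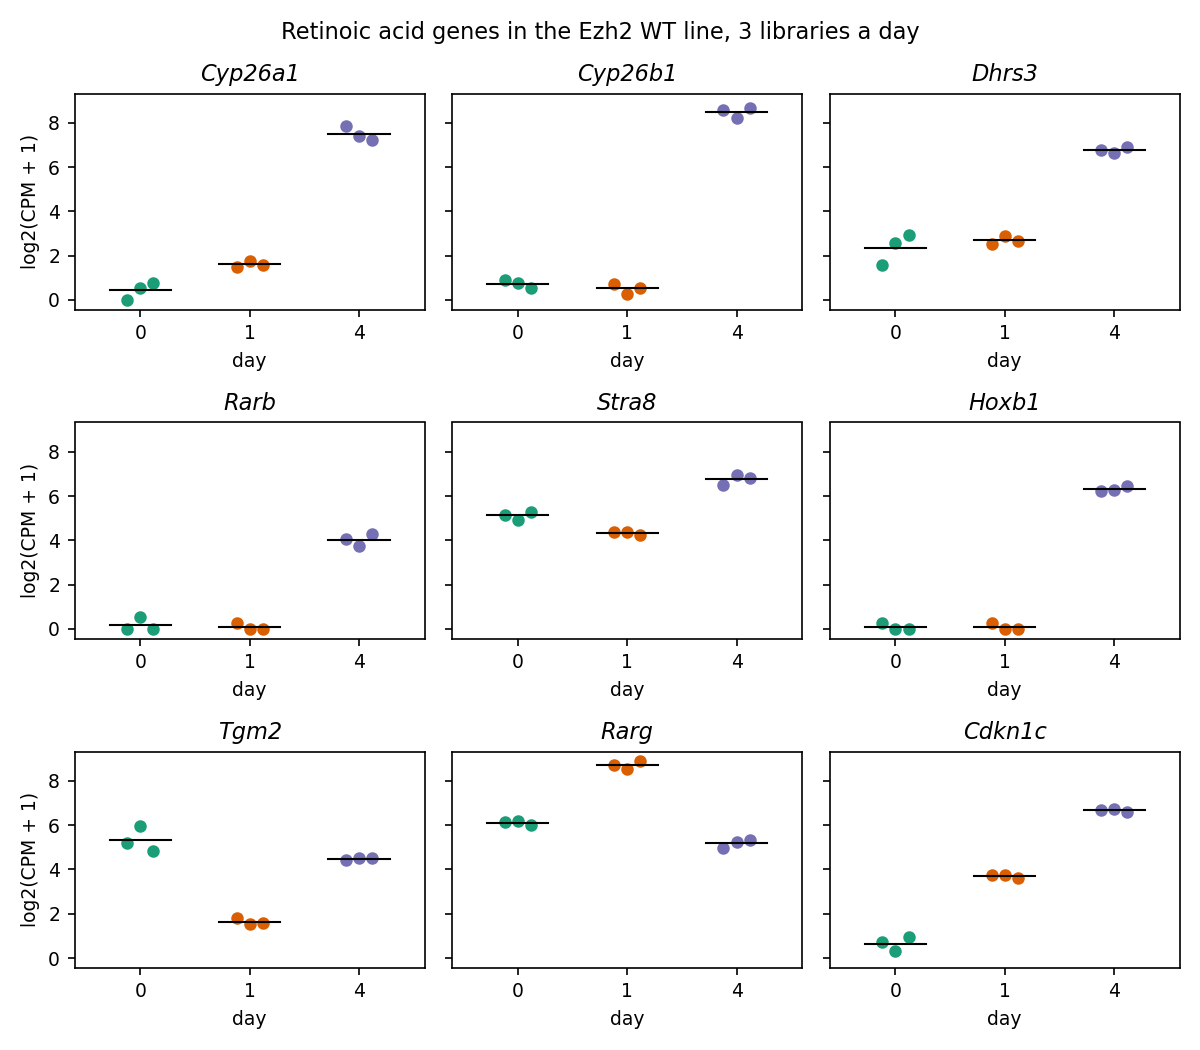
Levels of 9 retinoic acid genes in Ezh2 WT as log2(CPM + 1), 1 point per library on days 0, 1 and 4 and a line at the mean of 3. Cyp26a1, Cyp26b1, Dhrs3, Rarb, Stra8 and Hoxb1 are highest on day 4, while Rarg peaks on day 1.

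Targets of the ERK kinases, the pathway that PD0325901 blocks, mostly rose on day 1, among them Myc, one of the 10 largest rises, while immediate-early genes fell. 16 of 27 tested rose, 5 fell and 6 did not pass the test (22.5% and 24.2% of all genes rose and fell), and the median log2 change was 1.21, against -0.0241 over all genes. 3 of the 30 listed (Egr3, Fosl1 and Mafk) were too low to test. Myc had 26.3, 20.5 and 24.2 CPM on day 1, against 0, 0.455 and 0.226 CPM on day 0, with 3 counts in all on day 0, which gives a count ratio of 105, with a 95% exact interval of 35.5 to 511. The rule for the largest rises also required all 3 day 1 libraries of Myc to lie above day 0. Feedback inhibitors of the pathway also rose. Dusp6, the phosphatase of ERK, had 279, 308 and 208 CPM on day 1, against 12.9, 6.37 and 17 CPM on day 0 (log2 change of 4.45 ± 0.50, adjusted p 2.73e-08), and Spry4 had 57.6, 65.9 and 45.3 CPM on day 1, against 3.12, 2.96 and 2.71 CPM on day 0 (log2 change of 4.25 ± 0.31, adjusted p 8.13e-12). Neither gene overlapped between the days. Phlda1 had 241, 231 and 261 CPM on day 1, against 8.24, 5 and 6.78 CPM on day 0 (log2 change of 5.19 ± 0.20, adjusted p 1.4e-17). The ETS factor gene Etv4 rose with 3.37 ± 0.20, Dusp4 with 3.55 ± 0.29, the urokinase receptor gene Plaur with 2.64 ± 0.20 and the cyclin gene Ccnd1 with 2.50 ± 0.23, while Etv5 and Il17rd, of the same feedback group, did not pass the test (-0.20 ± 0.19 and 0.13 ± 0.20). The members that fell were the immediate-early genes Fos, Fosb, Egr1 and Egr2 and the ephrin receptor gene Epha4. Egr1, an immediate-early zinc finger gene, had 43.6, 37.7 and 43.5 CPM on day 1, against 262, 167 and 284 CPM on day 0 (log2 change of -2.51 ± 0.20, adjusted p 4.54e-11), below day 0 in every library. Epha4 fell with -2.02 ± 0.12, and Egr2 was left with 2 counts, against 30 on day 0 (a count ratio of 0.0655, with a 95% exact interval of 0.00758 to 0.258).

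Beta-catenin targets moved in both directions. Of 25 tested, 5 rose, 4 fell and 16 did not pass the test, with a median log2 change of 0.22, beside the 22.5% and 24.2% of all genes that rose and fell. Axin2, the feedback gene most used as a reading of the pathway, had 5.4, 3.02 and 8.52 CPM on day 1, against 3.56, 3.18 and 3.17 CPM on day 0. It did not pass the test (log2 change of 0.76 ± 0.34, adjusted p 0.0684), although without day 1 replicate 2 the adjusted p was 0.01. Sp5, a direct target, had 0.674, 0 and 0.673 CPM on day 1, against 2.89, 2.96 and 2.49 CPM on day 0 (log2 change of -2.58 ± 0.67, adjusted p 0.00237), lower in every day 1 library. Nkd2, an inhibitor of the pathway, averaged 0.218 ± 0.215 CPM on day 1 and 3.83 ± 1.85 CPM on day 0 and gave a count ratio of 0.0578, with a 95% exact interval of 0.0115 to 0.179. Lef1, a nuclear partner of beta-catenin and a formative gene, had 12.8, 11.8 and 11.2 CPM on day 1, against 0.668, 0.455 and 2.04 CPM on day 0 (log2 change of 3.47 ± 0.41, adjusted p 6.45e-08). Bmp4, a BMP ligand that beta-catenin and other signals regulate, had 486, 548 and 590.2 CPM on day 1, against 80.1, 71.4 and 71.7 CPM on day 0 (log2 change of 2.86 ± 0.21, adjusted p 1.02e-11). Both rises were present in every library. Cdx2 gave a count ratio of 22.6, with a 95% exact interval of 3.67 to 931, from 23 counts on day 1 and 1 on day 0.

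Genes of the LIF-STAT3 pathway fell more often than they rose. Of 21 tested, 3 rose, 10 fell and 8 did not pass the test, with a median of -0.57, beside the 22.5% and 24.2% of all genes that rose and fell. Socs3, the feedback inhibitor that STAT3 induces, had 4.5, 4.74 and 3.59 CPM on day 1, against 21.1, 16.2 and 26.2 CPM on day 0 (log2 change of -2.30 ± 0.54, adjusted p 0.00098). Stat3 itself had 55.3, 48 and 51.6 CPM on day 1, against 113, 114 and 123 CPM on day 0 (log2 change of -1.18 ± 0.16, adjusted p 6e-07), and the shared receptor gene Il6st, which encodes gp130, 25.2, 25.4 and 31.6 CPM on day 1, against 84.8, 77.6 and 82.3 CPM on day 0 (log2 change of -1.57 ± 0.12, adjusted p 1.72e-11). All 3 genes were lower in every day 1 library. Tfcp2l1, which STAT3 uses to sustain the naive state, fell with -1.76 ± 0.089 and Bcl3 with -1.21 ± 0.16. The receptor gene Lifr and the kinase gene Jak1 did not pass the test, with -0.12 ± 0.10 and -0.13 ± 0.10. Beside Gbx2, Socs2 rose (log2 change of 0.43 ± 0.10, adjusted p 0.00113), and so did Ceacam1 by 0.49 ± 0.16, with adjusted p of 0.0851 and 0.0606 without day 0 replicate 1 and day 1 replicate 3.

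Most naive factors fell and most formative genes rose, while the general pluripotency genes split. Of 25 naive factors, all tested, 4 rose, 17 fell and 4 did not pass the test (median -1.03). Over all genes tested, 22.5% rose and 24.2% fell. Nanog had 164, 180.3 and 193 CPM on day 1, against 384, 307 and 433 CPM on day 0 (log2 change of -1.07 ± 0.15, adjusted p 9.84e-07), and Esrrb, an orphan receptor of the naive network, 207, 229 and 179 CPM on day 1, against 325, 305 and 332 CPM on day 0 (log2 change of -0.65 ± 0.15, adjusted p 0.000706). Klf2 had 82.7, 86.4 and 98 CPM on day 1, against 509.8, 416 and 497 CPM on day 0 (log2 change of -2.41 ± 0.17, adjusted p 2.26e-12), a deeper fall than that of Klf5 (-0.53 ± 0.12). Each of these was lower in all day 1 libraries. The sizes within the group were graded: Tbx3 fell with -1.82 ± 0.12, Fbxo15 with -2.44 ± 0.13 and Prdm14, which represses DNA methyltransferase genes, with -2.21 ± 0.23, Klf4 with -2.83 ± 0.12 and Kit with -3.63 ± 0.15, and Spic, an ETS factor, averaged 0.371 ± 0.135 CPM on day 1 and 45.7 ± 1.87 CPM on day 0. Zfp42, known as Rex1, stood at 293 ± 28.1 CPM on day 1 and 349.6 ± 75.6 CPM on day 0 and did not pass the test (log2 change of -0.26 ± 0.17, adjusted p 0.232). The rises beside Gbx2 were Mael (2.63 ± 0.40), Zfp459 (1.04 ± 0.18) and Manba (1.04 ± 0.26).

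Of 17 tested general pluripotency genes of 18, 10 rose, 3 fell and 4 did not pass the test (median 0.57). The shares over all genes were 22.5% higher and 24.2% lower. Pou5f1, which encodes Oct4, had 61.1, 43.3 and 69.7 CPM on day 1, against 40.1, 40.5 and 35 CPM on day 0 (log2 change of 0.59 ± 0.24, adjusted p 0.046). It kept its direction without each library in turn, with adjusted p between 0.0181 (without day 1 replicate 2) and 0.177 (without day 1 replicate 3), and it was past the threshold only without day 1 replicate 2. Sox2, its partner, had 859, 807 and 1069.9 CPM on day 1, against 1651, 1522 and 1668 CPM on day 0 (log2 change of -0.82 ± 0.16, adjusted p 0.000139), lower in all. Utf1, a chromatin factor of pluripotent cells, had 685, 659 and 675 CPM on day 1, against 126, 152 and 133 CPM on day 0 (log2 change of 2.29 ± 0.12, adjusted p 8.11e-15), and Lin28a, which blocks let-7 maturation, 166, 144 and 155 CPM on day 1, against 30.9, 38.7 and 32.8 CPM on day 0 (log2 change of 2.18 ± 0.17, adjusted p 1.9e-11). Utf1 and Lin28a were higher in every day 1 library. The chromatin proteins Dppa2 and Dppa4 rose with 1.45 ± 0.11 and 1.22 ± 0.13. Sall4 and Tcf3 did not pass the test (0.10 ± 0.093 and -0.01 ± 0.15), and Fgf4, a target of Oct4 and Sox2, fell with -0.68 ± 0.14.

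Over all genes tested, 22.5% rose and 24.2% fell. In the formative list 26 of 27 genes were tested, and 19 rose, 3 fell and 4 did not pass the test (median 2.75). Of the falls, 1 was left without each library other than day 0 replicate 1. Fgf5, the classic epiblast marker, had no count on day 0 and 39 counts over the day 1 group, at least 12.8-fold higher. Pou3f1, the POU factor of the early epiblast also known as Oct6, averaged 80.6 ± 3.77 CPM on day 1 and 0.899 ± 0.378 CPM on day 0 (log2 change of 6.44 ± 0.25, adjusted p 7.8e-18). Sox11 had 52.6, 58.6 and 54 CPM on day 1, against 0.89, 1.59 and 0.904 CPM on day 0 (log2 change of 5.58 ± 0.25, adjusted p 1.99e-16) and Sox4, of the same SoxC family, 71.3, 76.3 and 79.8 CPM on day 1, against 10, 13.2 and 11.8 CPM on day 0 (log2 change of 2.70 ± 0.17, adjusted p 3.21e-13). Both were higher in all day 1 libraries. Nptx2 rose with 3.07 ± 0.33, Otx2, the factor that installs the formative state, with 0.91 ± 0.13, and Foxd3 with 0.89 ± 0.23. The zinc finger factor gene Zic2 had 8.77, 7.32 and 8.3 CPM on day 1, against 21.6, 23.2 and 24.2 CPM on day 0 and fell (log2 change of -1.50 ± 0.27, adjusted p 5.43e-05). Lin28b, a relative of Lin28a, did not pass the test (0.43 ± 0.34). On day 4 Fgf5 stood at 5.02 ± 1.1 CPM, above its day 1 level of 2.89 ± 0.825 CPM, and Pou3f1 at 5.03 ± 1.29 CPM, below its day 1 level.

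**Figure D3:**
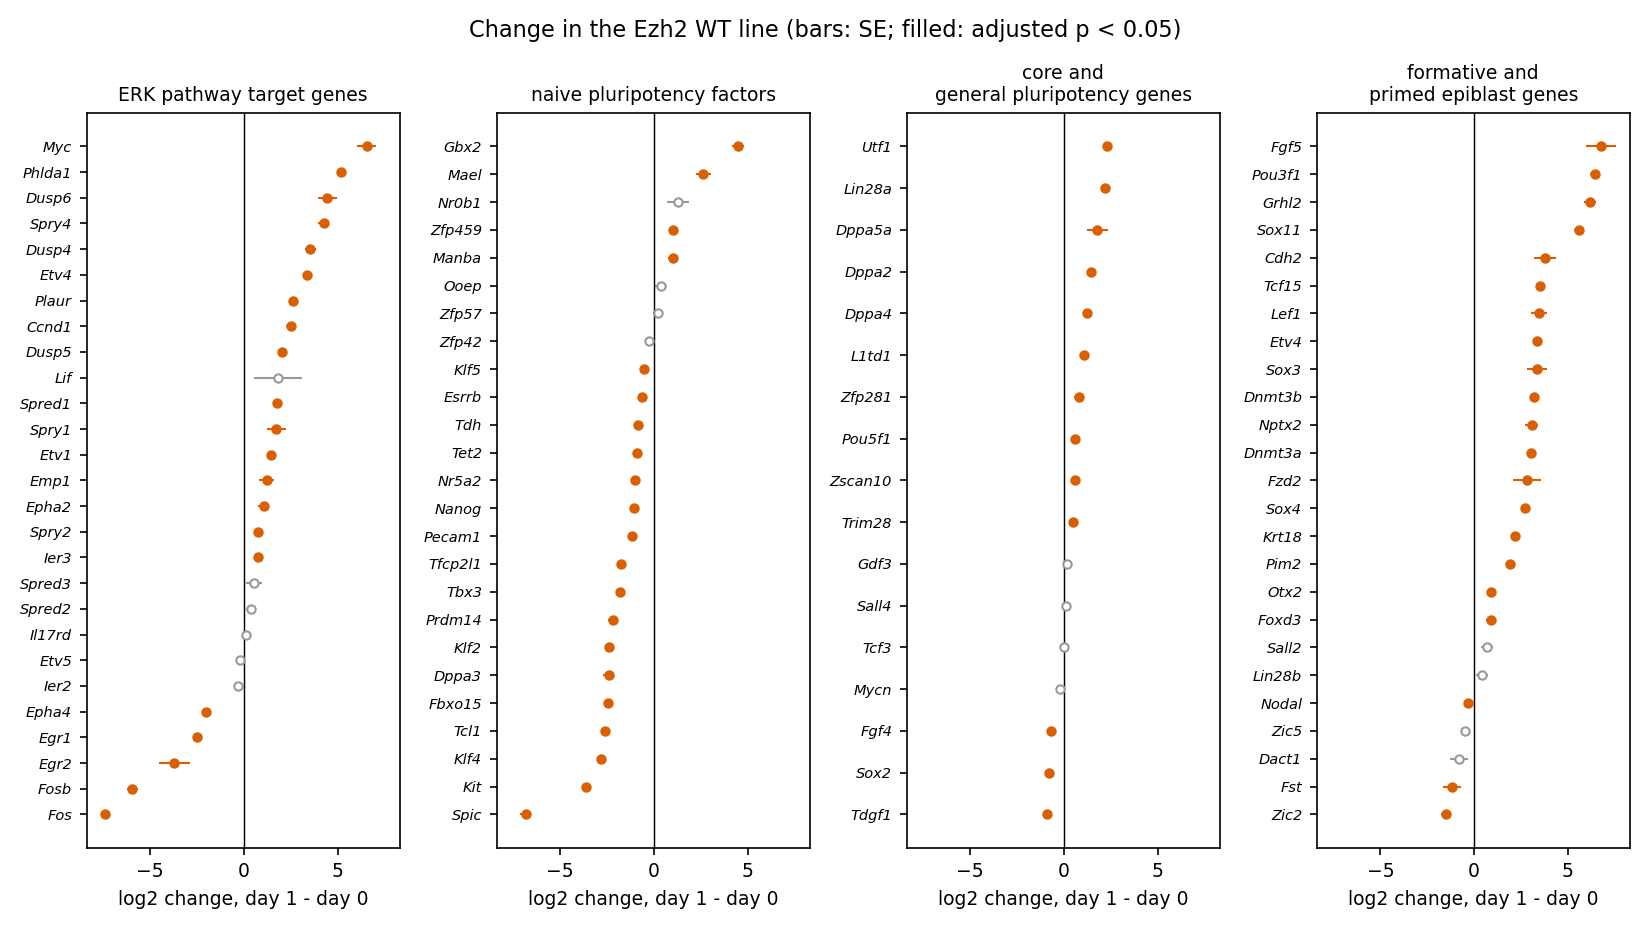
Log2 change from day 0 to day 1 in Ezh2 WT for the tested members of 4 gene lists (1 formative member is not shown), with bars for the SE and filled points for an adjusted p under 0.05. Naive factors lie mostly left of 0 and formative genes mostly right, with Spic at -6.85 and Gbx2 at 4.50 at the ends of the naive list and Fos at -7.41 and Myc at the ends of the ERK list.

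The de novo DNA methylation genes Dnmt3a and Dnmt3l rose and the demethylase gene Tet2 fell. Of 13 tested, 5 rose, 2 fell and 6 did not pass the test (22.5% and 24.2% of all genes rose and fell). Dnmt3l, the cofactor of the de novo enzymes, had 502, 501 and 462 CPM on day 1, against 46.7, 45.5 and 50.7 CPM on day 0 (log2 change of 3.36 ± 0.14, adjusted p 5.35e-17), and Dnmt3a had 371, 324 and 401 CPM on day 1, against 50.1, 41.2 and 40.5 CPM on day 0 (log2 change of 3.05 ± 0.13, adjusted p 5e-17). Every day 1 library of both was above every day 0 library. Uhrf1, which brings Dnmt1 to replicated DNA, rose with 1.07 ± 0.11, while Dnmt1 did not pass the test (log2 change of 0.18 ± 0.10, adjusted p 0.148), although without day 0 replicate 2 its adjusted p was 0.0203. Tet2, a demethylase, had 144, 151 and 166 CPM on day 1, against 325, 213 and 332 CPM on day 0 and fell in all (log2 change of -0.92 ± 0.15, adjusted p 7.99e-06), and Tet1 and Tet3 did not pass the test (-0.07 ± 0.11 and 0.34 ± 0.22).

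PRC2 genes changed unevenly. Of all 14 tested subunits and partners in the list, 6 rose, 2 fell and 6 did not pass the test. The shares over all genes were 22.5% higher and 24.2% lower. Phf19, a Polycomb-like subunit that reads histone H3 methylated on lysine 36, had 4.27, 3.66 and 4.71 CPM on day 1, against 0.445, 0.227 and 0.452 CPM on day 0 (log2 change of 3.40 ± 0.73, adjusted p 0.000343). Epop, a partner in the PRC2.1 form, had 387, 382 and 469 CPM on day 1, against 159, 123 and 164 CPM on day 0 (log2 change of 1.47 ± 0.12, adjusted p 5.73e-11), and Eed, the subunit that binds the methyl mark, 184, 185 and 184 CPM on day 1, against 122, 103 and 122 CPM on day 0 (log2 change of 0.67 ± 0.13, adjusted p 0.00011). For these 3 genes no day 1 library overlapped day 0. Jarid2, of the PRC2.2 form, rose with 0.60 ± 0.10. Suz12 averaged 601 ± 50.5 CPM on day 1 and 690.0 ± 18.1 CPM on day 0 and did not pass the test (log2 change of -0.20 ± 0.10, adjusted p 0.0967), nor did Aebp2 (-0.24 ± 0.15) or Mtf2 (-0.08 ± 0.088). Phf1, the third Polycomb-like gene, fell with -1.29 ± 0.29 and Lcorl, which encodes the PRC2.1 partner PALI2, with -1.64 ± 0.17. In PRC1, 5 rose, 4 fell and 14 did not pass the test among 23 tested, 39.1% called beside 46.7% of all genes. Kdm2b, which brings variant PRC1 to unmethylated CpG islands, had 74, 61.2 and 63.7 CPM on day 1, against 15.6, 16.4 and 17.9 CPM on day 0 (log2 change of 1.99 ± 0.18, adjusted p 3.51e-10). L3mbtl2 and Phc1 rose with 1.04 ± 0.15 and 0.72 ± 0.087, and the catalytic gene Rnf2 changed by 0.30 ± 0.093 (adjusted p 0.00878), against -0.29 ± 0.27 for Ring1 (adjusted p 0.41).

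Most Id genes, targets of BMP signals, rose, and the Nodal antagonists Lefty1 and Lefty2 fell. Of 28 tested genes of 31, 8 rose, 11 fell and 9 did not pass the test (22.5% and 24.2% of all genes rose and fell). Id1, which BMP signals induce through Smad1 and Smad5, had 228, 195 and 211 CPM on day 1, against 13.6, 9.33 and 12.4 CPM on day 0 (log2 change of 4.16 ± 0.17, adjusted p 4.76e-17), and Id3 and Id2 rose with 3.32 ± 0.57 and 2.69 ± 0.17. Id4 had 5.62, 5.17 and 6.05 CPM on day 1, against 41.4, 31.4 and 40.2 CPM on day 0 and fell (log2 change of -2.74 ± 0.28, adjusted p 4e-09). The inhibitory Smad6 of the BMP arm rose with 1.53 ± 0.33. On the Nodal side Lefty2, a secreted antagonist that Nodal induces, had 63.8, 70.9 and 52.9 CPM on day 1, against 343, 427 and 323 CPM on day 0 (log2 change of -2.54 ± 0.18, adjusted p 4.93e-12), and Lefty1 had 1.8, 3.02 and 1.79 CPM on day 1, against 17.6, 28.4 and 18.3 CPM on day 0 (log2 change of -3.26 ± 0.33, adjusted p 3.99e-09). No day 1 library of either Lefty gene reached a day 0 level. The signal transducer gene Smad3 fell with -1.28 ± 0.18 and the inhibitory Smad7 with -0.98 ± 0.13, and the coreceptor gene Tdgf1 with -0.90 ± 0.13. Smad2, Smad4 and the receptor gene Bmpr1a did not pass the test (0.23 ± 0.12, -0.15 ± 0.12 and -0.02 ± 0.14).

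Hox genes give cells their position along the body axis, lie in 4 clusters and are classic targets of both PRC2 and retinoic acid. In HoxC all 9 genes were tested and 9 fell, with a median of -3.25 (-2.85 with genes at 0 set to their bound). Over all genes tested, 22.5% rose and 24.2% fell. In HoxA 1 of 8 tested rose and 2 fell, in HoxB 0 of 8 rose and 3 fell, and in HoxD 0 of 6 rose and 1 fell (2 without day 1 replicate 2). Hoxc13 had 9.89, 6.25 and 11.4 CPM on day 1, against 43.4, 43.9 and 40 CPM on day 0 (log2 change of -2.21 ± 0.22, adjusted p 2.99e-09), Hoxc9 had 1.12, 1.51 and 3.36 CPM on day 1, against 18.5, 19.3 and 19.7 CPM on day 0 (log2 change of -3.25 ± 0.27, adjusted p 1.09e-10) and Hoxc12 had 1.12, 0.215 and 0.897 CPM on day 1, against 4.23, 6.6 and 5.65 CPM on day 0 (log2 change of -2.85 ± 0.55, adjusted p 0.000118). The day 1 libraries of these 3 genes were all below day 0. Hoxc11 had 1 count on day 1, against 50 on day 0 (a count ratio of 0.0196, with a 95% exact interval of 0.000488 to 0.115), and Hoxc5 had no count on day 1, at least 3.05-fold lower. Hoxc6 gave a count ratio of 0.173, with a 95% exact interval of 0.0325 to 0.599 (adjusted p 0.0219), and its adjusted p lay between 0.0552 and 0.067 without any 1 day 1 library or without day 0 replicate 2. In HoxB, Hoxb9 had 6.29, 4.95 and 4.71 CPM on day 1, against 28.5, 22.3 and 23.7 CPM on day 0 (log2 change of -2.22 ± 0.25, adjusted p 3.79e-08) and Hoxb13 fell with -2.26 ± 0.57. Hoxa2 had no count on day 1, at least 5.43-fold lower. The exception was Hoxa10, with 1.8, 3.88 and 3.59 CPM on day 1, against 0.445, 0.455 and 0.452 CPM on day 0, higher in every library (log2 change of 2.71 ± 0.58, adjusted p 0.000349). On day 4 genes from the 3′ side of the clusters were high: Hoxb4 stood at 47.1 ± 4.35 CPM and Hoxc4 at 46.4 ± 3.24 CPM, while Hoxc13 stood at 13.1 ± 3.82 CPM.

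**Figure D4:**
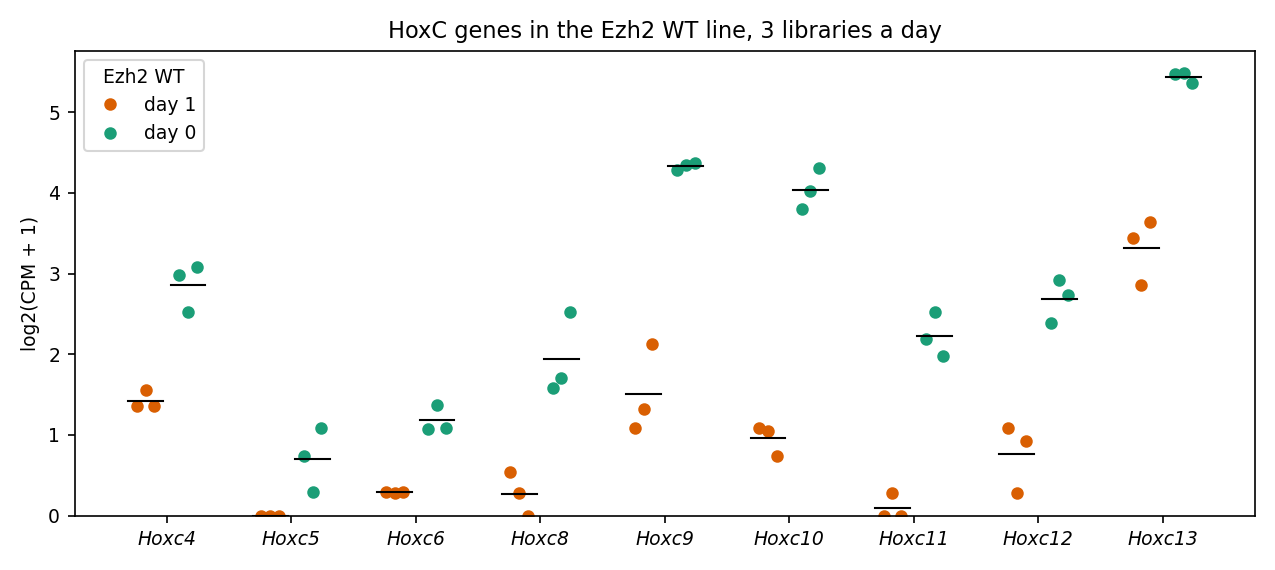
HoxC genes in Ezh2 WT as log2(CPM + 1), with day 1 (orange) left of day 0 (green), 1 point per library and a line at the mean of 3. For every gene shown the mean is lower on day 1, and Hoxc13 and Hoxc9 start from the highest day 0 levels, at 42.4 and 19.2 CPM.

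Each lineage list held both rises and falls, beside the 22.5% and 24.2% of all genes that rose and fell. Of 12 tested mesoderm and primitive streak genes (of 20), 5 rose, 3 fell and 4 did not pass the test; without day 0 replicate 1, 3 rose. Hand1, a factor of lateral mesoderm and trophoblast, had 16, 16.6 and 23.1 CPM on day 1, against 0.223, 0.682 and 0.226 CPM on day 0 (log2 change of 5.53 ± 0.44, adjusted p 4.62e-11), and Kdr, the VEGF receptor of early mesoderm, 16.4, 14 and 17.7 CPM on day 1, against 2.89, 0.91 and 0.904 CPM on day 0 (log2 change of 3.32 ± 0.34, adjusted p 5.96e-09). Evx1 had no count on day 0 and was at least 14.7-fold higher. The organiser gene Gsc gave a count ratio of 0.0339, with a 95% exact interval of 0.000829 to 0.204, and Foxf1 had no count on day 1, at least 3.39-fold lower. T, Mesp1, Mixl1 and Tbx6, which define the streak, were too low to test. Of 21 tested neural factors, 7 rose, 4 fell and 10 did not pass the test. Pax6 had 5.84, 6.89 and 4.93 CPM on day 1, against 0.445, 0.91 and 0.226 CPM on day 0 (log2 change of 3.42 ± 0.56, adjusted p 1.36e-05), Ncam1 had 25.2, 21.1 and 28.3 CPM on day 1, against 197, 173 and 189 CPM on day 0 (log2 change of -2.91 ± 0.13, adjusted p 1.92e-16) and Msi1 fell with -1.87 ± 0.42. Pax6 was higher and Ncam1 lower in every day 1 library.

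Of 30 extraembryonic endoderm genes, all tested, 11 rose, 5 fell and 14 did not pass the test (3 fell without day 1 replicate 3). Their median log2 change was 0.77 (0.42 with genes at 0 set to their bound), against -0.0241 over all genes, of which 22.5% rose and 24.2% fell. Gata6, which drives that lineage, had 2.25, 4.31 and 3.81 CPM on day 1, against 0.223, 0.227 and 0.904 CPM on day 0 (log2 change of 2.87 ± 0.58, adjusted p 0.000169), while Gata4 had 0, 1.08 and 0.449 CPM on day 1, against 1.56, 0.227 and 1.13 CPM on day 0 and did not pass the test (log2 change of -0.89 ± 0.67, adjusted p 0.289). The endocytic receptor gene Lrp2 rose with 3.83 ± 0.20 and the placental homeobox gene Rhox5 with 2.65 ± 0.14. The basement membrane genes parted: Col4a1 and Lamb1 rose with 1.91 ± 0.15 and 1.55 ± 0.18, Lama1 fell with -2.68 ± 0.19 and Lamc1 with -0.40 ± 0.11. Apoe had 217, 206 and 178 CPM on day 1, against 799, 1148 and 722 CPM on day 0 (log2 change of -2.15 ± 0.24, adjusted p 1.89e-08). The 7 defining markers Gata4, Gata6, Sox17, Sox7, Pdgfra, Foxa2 and Dab2 summed to 6.07 to 9.26 CPM on day 1, against 0.682 to 4.3 CPM on day 0, and to 948 to 1099.7 CPM on day 4. In bulk RNA, fewer cells of a type and less RNA per cell cannot be told apart. Among 19 tested trophectoderm genes, 10 rose, 5 fell and 4 did not pass the test, with a median log2 change of 0.64. Peg10, an imprinted gene of the placenta, had 523, 519 and 546 CPM on day 1, against 55.4, 50.5 and 53.8 CPM on day 0 (log2 change of 3.31 ± 0.11, adjusted p 1.08e-19), and Gata3 rose with 2.34 ± 0.41. Tfap2c, a factor of trophoblast, germ cells and naive cells, had 6.97, 11.2 and 9.42 CPM on day 1, against 185, 185 and 171 CPM on day 0 (log2 change of -4.29 ± 0.16, adjusted p 5.57e-18). The 6 defining markers Cdx2, Eomes, Elf5, Gata3, Hand1 and Krt7 summed to 61.6 to 74.9 CPM on day 1, against 29.2 to 36.2 CPM on day 0, and 4 of the 6 rose and 1 fell. Of these, Hand1 averaged 18.5 CPM on day 1 and 0.377 CPM on day 0 and Eomes 38.9 CPM on day 1 and 28.9 CPM on day 0. The adjusted p of Eomes was 0.0209, and 0.0588 without a filter on low counts and 0.0747 without day 0 replicate 1. The part of endoderm-like or trophectoderm-like cells in the other changes was not tested.

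Germline genes were mixed: of 24 tested, 9 rose, 5 fell and 10 did not pass the test (22.5% and 24.2% of all genes rose and fell). The retrotransposon guards Tex19.1 and Piwil2 rose with 1.71 ± 0.17 and 2.07 ± 0.31, and Ddx4, a germ cell helicase, with 1.30 ± 0.33, while Sycp3 and Prdm1 fell with -1.91 ± 0.30 and -1.74 ± 0.21. Dazl did not pass the test (0.07 ± 0.20). Among 2-cell-stage genes 1 of 11 tested rose and 0 fell, and the 5 defining markers Zscan4c, Zscan4d, Zscan4f, Tcstv1 and Zfp352 summed to at most 0.646 CPM in a day 1 library and 0.227 CPM in a day 0 library. Of 26 tested imprinted genes, 7 rose, 8 fell and 11 did not pass the test. The genes given here from the Dlk1-Dio3 region fell. Meg3, its maternal noncoding RNA, had 261, 345 and 305 CPM on day 1, against 1382, 1087 and 1356 CPM on day 0 (log2 change of -2.07 ± 0.21, adjusted p 5.73e-09), and Rian and Mirg fell with -1.27 ± 0.17 and -1.35 ± 0.22. Among the other imprinted genes, the paternally expressed Snrpn rose with 1.67 ± 0.13, and Plagl1 and Igf2r fell with -2.18 ± 0.17 and -1.70 ± 0.20. Fibroblast and feeder markers were almost absent on both days. The 14 markers summed to 11 to 18.2 CPM on day 1, against 4.9 to 5.88 CPM on day 0, 4 of them without a count on day 1 and 7 on day 0, and to 1186 to 1643 CPM on day 4. In the list of the same genes, 2 rose without day 1 replicate 2, and 1 fell without day 0 replicate 1 or day 1 replicate 1. The member that rose was Thy1, with 9.44, 6.68 and 10.8 CPM on day 1, against 0.223, 0.455 and 0.226 CPM on day 0 (log2 change of 4.78 ± 0.53, adjusted p 2.32e-08).

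The 5 G1 cyclin genes of the list rose and the CDK inhibitor genes Cdkn1a and Cdkn1b fell, while Cdkn1c of the same family, listed above with the retinoic acid targets, rose with 4.28 ± 0.26. Of 24 genes of the G1 and p53 list, 9 rose, 3 fell and 12 did not pass the test. The shares over all genes were 22.5% higher and 24.2% lower. Ccne1, the cyclin that drives S phase entry, had 447, 411 and 382 CPM on day 1, against 56.8, 67.6 and 59.7 CPM on day 0 (log2 change of 2.75 ± 0.13, adjusted p 4.71e-16). Cdkn1a, which encodes p21, had 53.5, 61.6 and 54.9 CPM on day 1, against 227, 257 and 231 CPM on day 0 (log2 change of -2.07 ± 0.12, adjusted p 3e-14), and Cdkn1b, which encodes p27, 109.9, 101 and 87 CPM on day 1, against 209, 186 and 246 CPM on day 0 (log2 change of -1.11 ± 0.14, adjusted p 3.8e-07). The libraries of all 3 were fully apart. Ccnd3 and Ccne2 rose with 1.09 ± 0.22 and 0.98 ± 0.14, and the inhibitor genes Cdkn2a, Cdkn2b, Cdkn2c and Cdkn2d did not pass the test. Beside Cdkn1a, which is also a p53 target and fell, the p53 targets Mdm2, Bax, Ccng1 and Phlda3 did not pass the test. Of 20 ATF4 targets, the genes of the amino acid stress response, 4 rose, 11 fell and 5 did not pass the test. Atf5 and Ddit3, which encodes CHOP, fell with -1.77 ± 0.22 and -1.89 ± 0.23, and the asparagine synthetase gene Asns had 874, 871 and 919 CPM on day 1, against 1649, 1657 and 1588 CPM on day 0 (log2 change of -0.88 ± 0.10, adjusted p 1.59e-08). Phgdh, the entry enzyme of serine synthesis, rose with 1.27 ± 0.37.

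The metabolic lists are given beside the 22.5% and 24.2% of all genes that rose and fell. Of 23 glycolytic genes, 8 rose, 9 fell and 6 did not pass the test (5 fell without day 0 replicate 2). The glucose transporters parted, with Slc2a1 at 273, 317 and 362 CPM on day 1, against 152, 149 and 166 CPM on day 0 (log2 change of 1.03 ± 0.15, adjusted p 1.87e-06) and Slc2a3 at 491, 485 and 443 CPM on day 1, against 1081, 973 and 1096 CPM on day 0 (log2 change of -1.15 ± 0.12, adjusted p 3.97e-09). Hk1 fell with -1.76 ± 0.19 and Ldhb with -1.25 ± 0.11. In cholesterol synthesis 7 of 21 rose, among them Hmgcs1 (0.76 ± 0.10), and 0 fell. Among 36 complex I subunits 7 rose and 8 fell, near the shares of all genes, with a median of 0.03 against -0.0241. That list was unsteady, with 12 higher and 5 lower when no filter on low counts was used, and 4 lower without day 0 replicate 1, day 0 replicate 2 or day 1 replicate 3.

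Of 14 tested interferon-stimulated genes of 21, 6 rose, 5 fell and 3 did not pass the test. Over all genes tested, 22.5% rose and 24.2% fell. The viral RNA sensor gene Ddx58 (RIG-I) had 88.1, 83.8 and 91.9 CPM on day 1, against 29.6, 23 and 29.2 CPM on day 0 (log2 change of 1.69 ± 0.13, adjusted p 4.45e-11), whereas Ifitm1, a membrane protein of stem cells, had 40.9, 37.5 and 31.6 CPM on day 1, against 99.3, 129 and 102 CPM on day 0 (log2 change of -1.58 ± 0.22, adjusted p 1.06e-06). Of 22 epithelial and EMT genes, 7 rose, 7 fell and 8 did not pass the test (4 fell without day 1 replicate 2 or without day 0 replicate 3). Epcam and the splicing factor gene Esrp1 rose with 2.00 ± 0.14 and 4.53 ± 0.39, Cldn6 rose with 3.03 ± 0.33, and the desmosomal gene Dsp and fibronectin, Fn1, fell with -2.65 ± 0.15 and -1.78 ± 0.11. Of 16 housekeeping genes, 3 rose, 6 fell and 7 did not pass the test, and 5 rose when the 6 libraries were fitted alone. Actb rose with 1.52 ± 0.14 and Eef2 fell with -1.06 ± 0.12, while Polr2a and Ppia did not pass the test (-0.06 ± 0.10 and 0.12 ± 0.13).

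Whether the day 1 change of Ezh2 WT differed from that of its sister lines was tested as a difference of changes in the same fit. Against the line labelled EV, 604 of 14086 genes differed (4.29%), 283 with a higher change in Ezh2 WT (2.01%) and 321 with a lower one (2.28%). Leaving out 1 library moved these counts most without EV day 0 replicate 2, to 388 genes in all. The lower count was 188 to 203 without that library, EV day 1 replicate 3, or Ezh2 WT day 0 replicate 1, day 1 replicate 1 or day 1 replicate 2. The line labelled EV also carries Ezh1 counts, so the lines differ in more than the restored gene. Ccnd2 had a log2 change of 6.46 ± 0.20 in Ezh2 WT and 2.20 ± 0.14 in the line labelled EV (difference 4.26 ± 0.25, adjusted p 1.62e-12). The ATF4 targets differed between these lines: of 20 tested, 18 had a higher change in Ezh2 WT and 0 a lower one, and within the line labelled EV 0 rose and 19 fell. Trib3, a pseudokinase that ATF4 induces, had -0.58 ± 0.13 in Ezh2 WT and -3.78 ± 0.17 in the line labelled EV (difference 3.20 ± 0.21, adjusted p 3.11e-11). Outside that list, Pck2, the mitochondrial PEP carboxykinase, had 0.17 ± 0.10 and -2.86 ± 0.12 (difference 3.03 ± 0.15, adjusted p 8.21e-14), and Nars, the asparaginyl-tRNA synthetase, 0.26 ± 0.091 and -1.75 ± 0.094 (difference 2.01 ± 0.13, adjusted p 1.74e-11). Cryzl1, a quinone oxidoreductase-like gene, had -0.76 ± 0.10 and -2.76 ± 0.12 (difference 2.00 ± 0.16, adjusted p 9.56e-10). With a lower change in Ezh2 WT stood Ap3b2, at -5.52 ± 0.36 in Ezh2 WT and -0.03 ± 0.31 in the line labelled EV (difference -5.49 ± 0.52, adjusted p 3.42e-08), and the ubiquitin ligase adaptor gene Klhl13, at -0.51 ± 0.16 and 1.78 ± 0.15 (difference -2.29 ± 0.22, adjusted p 3.73e-08). Dnmt3a rose in both lines, with 3.05 ± 0.13 and 4.73 ± 0.14 (difference -1.68 ± 0.18, adjusted p 2.15e-07), and so did Adam23, with 1.60 ± 0.16 and 4.14 ± 0.21 (difference -2.53 ± 0.28, adjusted p 3.6e-07). Tfap2c fell in both, with -4.29 ± 0.16 and -2.40 ± 0.14 (difference -1.89 ± 0.21, adjusted p 6.75e-07).

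Between Ezh2 WT and amKR 0 of 14086 genes differed in their day 1 change by edgeR's quasi-likelihood test (0%), with 994 at an unadjusted p under 0.05 and 7 by DESeq2. This count does not show that the lines changed alike. The log2 changes of the 2 lines stood side by side for the leading genes: Fos had -7.41 ± 0.23 in Ezh2 WT and -5.97 ± 0.22 in amKR, Phlda1 5.19 ± 0.20 and 5.21 ± 0.21, Dusp6 4.45 ± 0.50 and 3.92 ± 0.45, Klf4 -2.83 ± 0.12 and -2.59 ± 0.12, and Hoxc9 -3.25 ± 0.27 and -2.78 ± 0.29. For Cyp26a1 the changes were 2.38 ± 0.79 in Ezh2 WT, 5.35 ± 0.72 in the line labelled EV and 4.11 ± 0.75 in amKR, and neither difference from Ezh2 WT passed the test (adjusted p 0.327 and 0.843).

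The Suz12 WT line went through the same labelled step, and most genes tested changed differently there. Over the 12 libraries of both WT lines, fitted together, 7620 of 13451 genes differed in their change (56.7%), 3862 with a higher change in Ezh2 WT (28.7%) and 3758 with a lower one (27.9%). Series, parental cells and restored gene differ together here and cannot be told apart. Across 13067 genes the log2 changes of the 2 lines had a Pearson r of -0.042, with the change of Ezh2 WT taken from the fit on 27 libraries. Within the Ezh2 series, over 14086 genes, the change of Ezh2 WT had a Pearson r of 0.755 with that of the line labelled EV and 0.839 with that of amKR. These values are a description over genes that are not independent. In the retinoid lists most genes rose in Suz12 WT. There 9 of 12 tested genes of retinoid synthesis, transport and breakdown rose and 1 fell, among the receptors and cofactors 9 of 15 rose and 3 fell, and among the other targets 19 of 23 rose and 3 fell, where 58.1% of all genes passed the test and 30.4% and 27.7% rose and fell. Stra8 stood at 597 ± 59 CPM on day 1 and 1.76 ± 0.674 CPM on day 0 in Suz12 WT, on a scale set over the 12 libraries, and its change of -0.83 ± 0.14 in Ezh2 WT against 8.39 ± 0.18 in Suz12 WT gave a difference -9.22 ± 0.24, adjusted p 9.18e-21. Cyp26a1 stood at 360.3 ± 33.4 CPM on day 1 and 2.67 ± 1.03 CPM on day 0 in Suz12 WT (difference -4.68 ± 1.00, adjusted p 0.000266), and Dhrs3 at 67.3 ± 0.611 CPM on day 1 and 2.51 ± 0.882 CPM on day 0 (difference -4.43 ± 0.42, adjusted p 1.1e-09). Hoxb1, single counts in Ezh2 WT on both days, stood at 323 ± 15.5 CPM on day 1 and 0.251 ± 0.00182 CPM on day 0 in Suz12 WT. Rarg ran the other way, with a change of 2.63 ± 0.13 in Ezh2 WT and -2.94 ± 0.14 in Suz12 WT (difference 5.57 ± 0.19, adjusted p 1.06e-18).

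Other leading genes of this difference were of several kinds. The calcium-binding protein gene S100a6 changed by 5.78 ± 0.17 in Ezh2 WT and -1.72 ± 0.13 in Suz12 WT (difference 7.50 ± 0.22, adjusted p 7.24e-20), and Rasgrp2, an exchange factor for Rap GTPases, by 3.69 ± 0.16 and -4.25 ± 0.21 (difference 7.94 ± 0.27, adjusted p 9.25e-19). Utf1 rose in Ezh2 WT and fell in Suz12 WT, with 2.30 ± 0.12 and -2.84 ± 0.12 (difference 5.14 ± 0.17, adjusted p 8.16e-19), as did the muscle light chain gene Mylpf, with 0.75 ± 0.095 and -3.49 ± 0.11 (difference 4.23 ± 0.14, adjusted p 8.16e-19). The laminin gene Lama1 fell in Ezh2 WT and rose in Suz12 WT, with -2.68 ± 0.14 and 3.38 ± 0.14 (difference -6.06 ± 0.20, adjusted p 8.16e-19), and so did Ap3b2, with -5.51 ± 0.32 and 5.51 ± 0.17 (difference -11.03 ± 0.33, adjusted p 1.12e-19). The imprinted gene Peg3 had -0.30 ± 0.11 and 4.92 ± 0.11 (difference -5.22 ± 0.15, adjusted p 7.24e-20), and Prtg, a surface protein of early neural tissue, -0.48 ± 0.11 and 4.31 ± 0.11 (difference -4.80 ± 0.16, adjusted p 6.67e-19). Among ERK targets 5 of 26 rose and 13 fell in Suz12 WT, and Phlda1 had 5.19 ± 0.16 in Ezh2 WT and 0.24 ± 0.12 in Suz12 WT. The naive factors fell in Suz12 WT as well, 24 of 25, with a median of -3.63, against -1.03 in Ezh2 WT. In HoxC 6 of 9 genes rose and 3 fell in Suz12 WT. The mean levels of Ezh2 WT on day 1 had a Pearson r of 0.819 with those of Suz12 WT on day 1 and 0.921 with those of Suz12 WT on day 0 over 13451 genes, as log2(CPM + 1), a description of libraries that share genes.

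**Figure D5:**
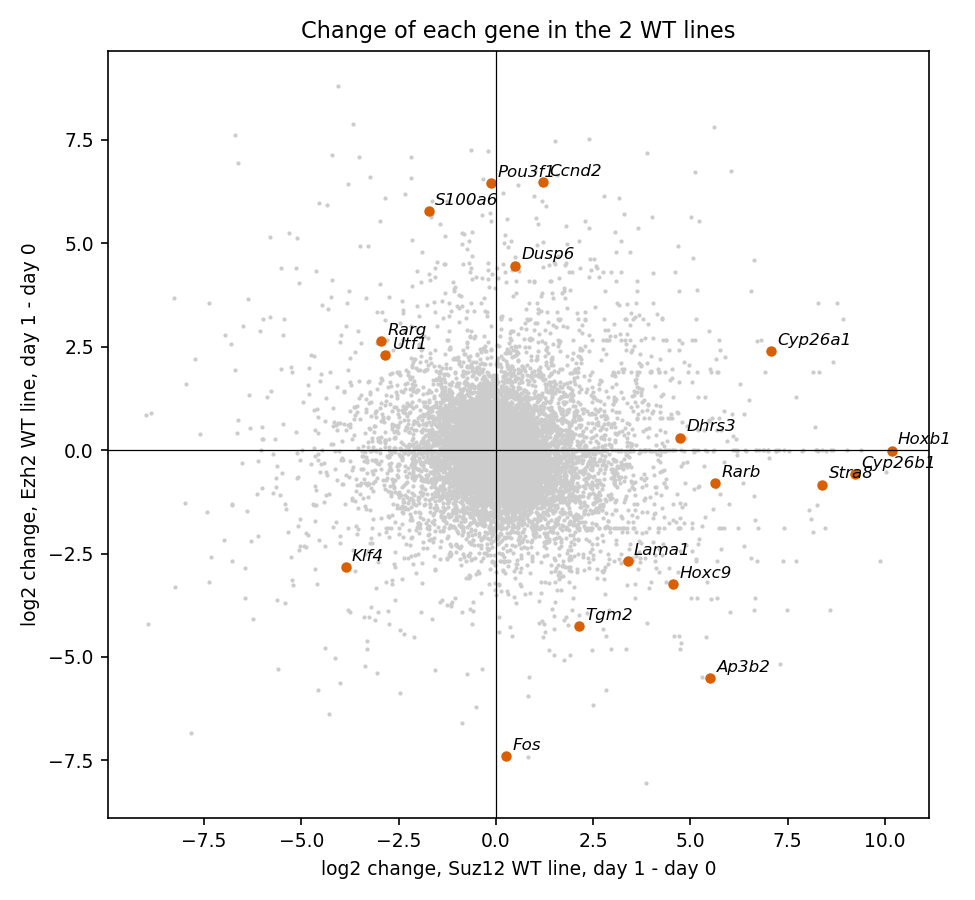
Log2 change between day 1 and day 0 of each gene in Ezh2 WT (vertical axis) and in Suz12 WT (horizontal axis), with 18 genes named in the text in orange. Stra8, Hoxb1, Cyp26b1 and Rarb lie far to the right near 0 on the vertical axis, and Utf1 and Rarg lie upper left. Hoxb1 and Rarb rest on single counts in Ezh2 WT.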

How the data were processed

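Messenger RNA was read by QuantSeq 3′ sequencing, per the labels' protocols, and mapped to mm10, per the submitters' processing notes; the aligner, counter and annotation are not given in the sources used here. The authors deposited a raw count per gene for each library, whole numbers without normalization. Of these tables, 33 were used: 27 of the Ezh2 series and 6 of Suz12 WT. Each holds 55487 gene IDs, of which 55141 had a symbol, and 5 rows that name no gene and were removed. In Ezh2 WT these rows held 17.8% to 21.9% of reads off genes and 19.4% to 20.4% with several alignments. Total reads were almost level (7998368 to 8001003 per Ezh2 WT library).

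Counts were filtered with filterByExpr, scaled by TMM and tested with edgeR 4.0.16 (quasi-likelihood test, R 4.3.3), 1 mean per group over the 27 libraries, 14086 genes, p-values 2-sided and adjusted by Benjamini and Hochberg, with a call at an adjusted p under 0.05. The difference from Suz12 WT used 12 libraries and 13451 genes, and changes printed beside it come from that fit. Errors of log2 changes are SE, and of levels SD with n = 3. A gene without a count in 1 group is given as a bound against 3 counts over that group, and one with 1 to 3 counts as a count ratio with an exact 95% interval, both covering counting error only. Genes near a copy may share reads, and reads with several alignments were not counted on genes. The statistics were tested on simulated data.

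The comparison, its 33 gene lists (645 genes) and the rule for named genes were chosen with earlier results of these data known. Named are the 10 largest rises and 10 largest falls that passed the test, with no library of 1 day inside the range of the other and at least 10 CPM on average in the higher group, predicted genes left out; list members; and the 5 smallest p in each direction of a difference. Alternatives were other size factors (RLE), no filter, DESeq2 1.42.0, limma 3.58.1 (voom with quality weights), the 6 libraries alone, a replicate block, a 2-fold rule and leaving out each library. Promoters came from RefSeq, GRCm38.p6, matched by symbol. Some list members are counted in their lists and are not reported here.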

Additional observations from a re-analysis of the deposited data

Results flagged for a closer look

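The differences below are those in which the day 1 change of Ezh2 WT was tested against that of another line and passed, each as a log2 difference by edgeR's quasi-likelihood test. Against the line labelled EV the change in Ezh2 WT was higher for Pck2 (3.03), Ccnd2 (4.26), Nars (2.01), Trib3 (3.20) and Cryzl1 (2.00). It was lower for Ap3b2 (-5.49), Klhl13 (-2.29), Dnmt3a (-1.68), Adam23 (-2.53) and Tfap2c (-1.89).

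Against Suz12 WT the change in Ezh2 WT was higher for S100a6 (7.50), Utf1 (5.14), Mylpf (4.23), Rasgrp2 (7.94) and Rarg (5.57). It was lower for Stra8 (-9.22), Peg3 (-5.22), Ap3b2 (-11.03), Prtg (-4.80), Lama1 (-6.06), Cyp26a1 (-4.68) and Dhrs3 (-4.43). Cyp26a1 and Dhrs3 were added after their values were seen. In Ezh2 WT the change of Dhrs3 itself did not pass the test, and the line labelled EV carries Ezh1 and Ezh2 counts that its label does not give.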

How the results depend on the processing

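The count of genes that changed on day 1 was 6582 against 6568 with RLE size factors, 6441 with no filter on low counts, 6419 by DESeq2 and 6482 with the 6 libraries fitted alone, with no gene called in the main result turning its sign. With a 2-fold rule it was 3123 (1400 higher, 1723 lower). Without each library in turn it was 5780 to 6033 (2824 to 2976 higher, 2908 to 3103 lower). Against the line labelled EV, the count of genes with a higher change was 438 without a filter, against 283 with it, and leaving out 1 library gave 388 to 539 genes (200 to 271 higher, 188 to 268 lower). Against amKR, where the main count was 0, it was 42 without a filter (18 higher, 24 lower), 7 by DESeq2 (2 higher, 5 lower), 1 with the replicate block (1 lower), and 0 to 1 without 1 library (0 higher, 0 to 1 lower); the cause was not tested. Against Suz12 WT leaving out 1 library gave 7309 to 7697 genes (3732 to 3927 higher, 3533 to 3770 lower).

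Same-numbered libraries of Ezh2 WT on both days did not deviate together (correlations of -0.0651, -0.124 and -0.0024). Those of the line labelled EV did (0.273, 0.171 and 0.395), and those of amKR had 0.0409, 0.105 and 0.149. A correlation near 0 cannot exclude pairing, since a shared part may be small beside other spread, so whether the numbers pair the libraries is not known. The replicate block left the day 1 count at 6582, with 97.07% of the calls kept in the same direction, and gave 609 genes against EV (304 higher, 305 lower), where the main count was 604 (283 higher, 321 lower).

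Of the named genes with a change given, 3 without a call turned sign with a shift of at least 1 SE when 1 library was left out: Dhrs3 (-0.049 without day 0 replicate 1, with a range of -0.049 to 0.67 over the libraries left out), Il17rd (-0.095 and -0.10 without day 0 replicate 2 and day 1 replicate 2, range -0.10 to 0.30) and Ring1 (0.036 without day 0 replicate 2, range -0.41 to 0.036). Turns of sign with a smaller shift, in genes near 0, were not counted. Depth limits genes such as Rarb and Hoxb1, which were under the floor on both days, so a difference below the floor was not detectable. Their day 4 levels, given above, lie far above the floor.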
